A study of Mus musculus with 40 samples.

Results

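The genes of cholesterol and fatty acid synthesis were followed through resting, activated and inhibitor-treated mouse T cells. The set held 35 genes of the 21950 in the expression table, chosen by symbol: 5 genes of the SREBP system, 7 enzymes of the mevalonate pathway, 11 enzymes of the route from farnesyl diphosphate to cholesterol, 3 genes of cholesterol transport and 9 genes of fatty acid synthesis, elongation and desaturation. Cells build cholesterol from acetyl-CoA by way of mevalonate, farnesyl diphosphate, squalene and lanosterol, and they build fatty acids from the same acetyl-CoA. Both routes are under the transcription factors SREBP1 and SREBP2, encoded by *Srebf1* and *Srebf2*, which Scap carries out of the endoplasmic reticulum when sterols are scarce and which Insig1 and Insig2 hold back when sterols are plentiful. Oxysterols act through liver X receptors to switch on the exporters Abca1 and Abcg1. T cells that enter division after stimulation of the T cell receptor (TCR) are known to need both lipids for new membrane.

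RNA-seq was done on CD4+ T cells of Foxp3 reporter mice in 8 groups of 3 libraries: resting and activated conventional T cells (Tconvs), resting and activated thymic regulatory T cells (tTregs, called nTreg in the labels), and induced regulatory T cells (iTregs) that were resting, restimulated, restimulated with CM-4620 (called ORAIinh in the labels), an inhibitor of the ORAI calcium channel, or restimulated with cyclosporine A (CsA), an inhibitor of calcineurin. The concentrations of the inhibitors in these cultures are not given in the sources used here. Tconvs and tTregs were sorted from the spleens of mice aged 2 to 4 months. iTregs were made from naive cells of mice aged 6 weeks, stimulated through CD3 and CD28 for 4 days with 2 ng per ml of TGF-β and with IL-2, sorted by their Foxp3 reporter and rested for 1 day with IL-2 before restimulation through CD3 and CD28. iTregs thus differed from the other cells in age of the mice and in the 4 days of induction at the same time as in cell type. These cannot be told apart. Whether the Tconvs and tTregs of these libraries were also rested in culture or given IL-2 is not given in the sources used here. How long the cells had been activated or restimulated before these libraries were made, and whether replicates came from separate mice or cultures, is not given in the sources used here, so that p-values measure the spread between these libraries, which may be technical.

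The libraries held 5256800 to 15685234 reads on genes, with the lowest group median, 7131717, in activated tTregs. T cell markers summed to 21097.8 normalized counts or more in every library. *Foxp3*, which defines regulatory T cells, was at 10.4 and 33.8 normalized counts (mean) in resting and activated Tconvs, at 7537 and 7312 in tTregs and at 1280.0 in resting iTregs. The list of 4 Treg markers, *Foxp3*, *Ikzf2*, *Il2ra* and *Ctla4*, was less selective. It summed to 458 to 478 in resting and 5116 to 5357 in activated Tconvs, to 20635 to 28206 in tTregs and to 12269 to 17057 over all iTreg groups. Among markers of other cells, *Cd8a* and *Cd8b1* of CD8 T cells summed to 223 to 236 normalized counts in resting Tconvs and to at most 178 in the other groups. *Ms4a1* of B cells was at 0 in all 24 libraries. The 4 B cell markers summed to 89.0 to 136 normalized counts in tTregs and to at most 44.3 in the other groups. The 5 myeloid markers summed to at most 119.6, the 2 NK cell markers to at most 30.9, and the 3 hemoglobin genes to at most 26.2. The 12 markers of proliferation summed to 1718 to 1755 normalized counts in resting Tconvs, 11696 to 12177 in activated Tconvs, 1657 to 1913 in resting tTregs, 4922 to 5455 in activated tTregs, 54173 to 55331 in resting iTregs and 44205.6 or more in all restimulated iTregs, and none of the 12 was at 0 in any group. The part of proliferation in the differences below was not tested. In bulk RNA, more cells of a kind and more RNA per cell cannot be told apart.

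Values are normalized counts, which are read counts per gene divided by one size factor per library. A gene was said to rise or fall, or to differ, where limma, fitted to the log2 of the normalized count plus 1, gave an adjusted p of less than 0.05 together with a log2 fold change of more than 0.5 in size, and values printed as 0.50 without a call lay below it before rounding or failed on p. All 35 members passed the filter of 10 normalized counts in 3 libraries in each of the fits. *Scd1* and *Fads2* did so through the iTreg libraries alone, both among the Tconv, tTreg and resting iTreg libraries and over all libraries. Their difference between iTregs and the others was thus needed for them to be tested in these fits.

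Per kilobase of exon, the members with the highest levels were *Acly* in Tconvs at rest and in tTregs, *Idi1* in activated Tconvs and *Scd2* in resting iTregs. In resting Tconvs *Acly*, which makes cytosolic acetyl-CoA from citrate, led with 666 normalized counts per kb, followed by the elongase *Elovl5* with 598, while the desaturase *Scd2* was in place 29 of 35 with 15.0. In tTregs *Acly* and *Elovl5* led both at rest, with 656 and 542 per kb, and after activation, with 835 and 429. In activated Tconvs *Idi1*, the isopentenyl diphosphate isomerase, came first with 791 per kb and *Fdps*, the farnesyl diphosphate synthase, came after *Acly* with 699.6. In resting iTregs *Scd2* came first with 1281 per kb and *Fdps* second with 1136. By group mean of the normalized count, 13 members were highest in resting iTregs and 11 in activated Tconvs, and 15 were lowest in resting Tconvs and 11 in resting tTregs.

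**Figure D1:**
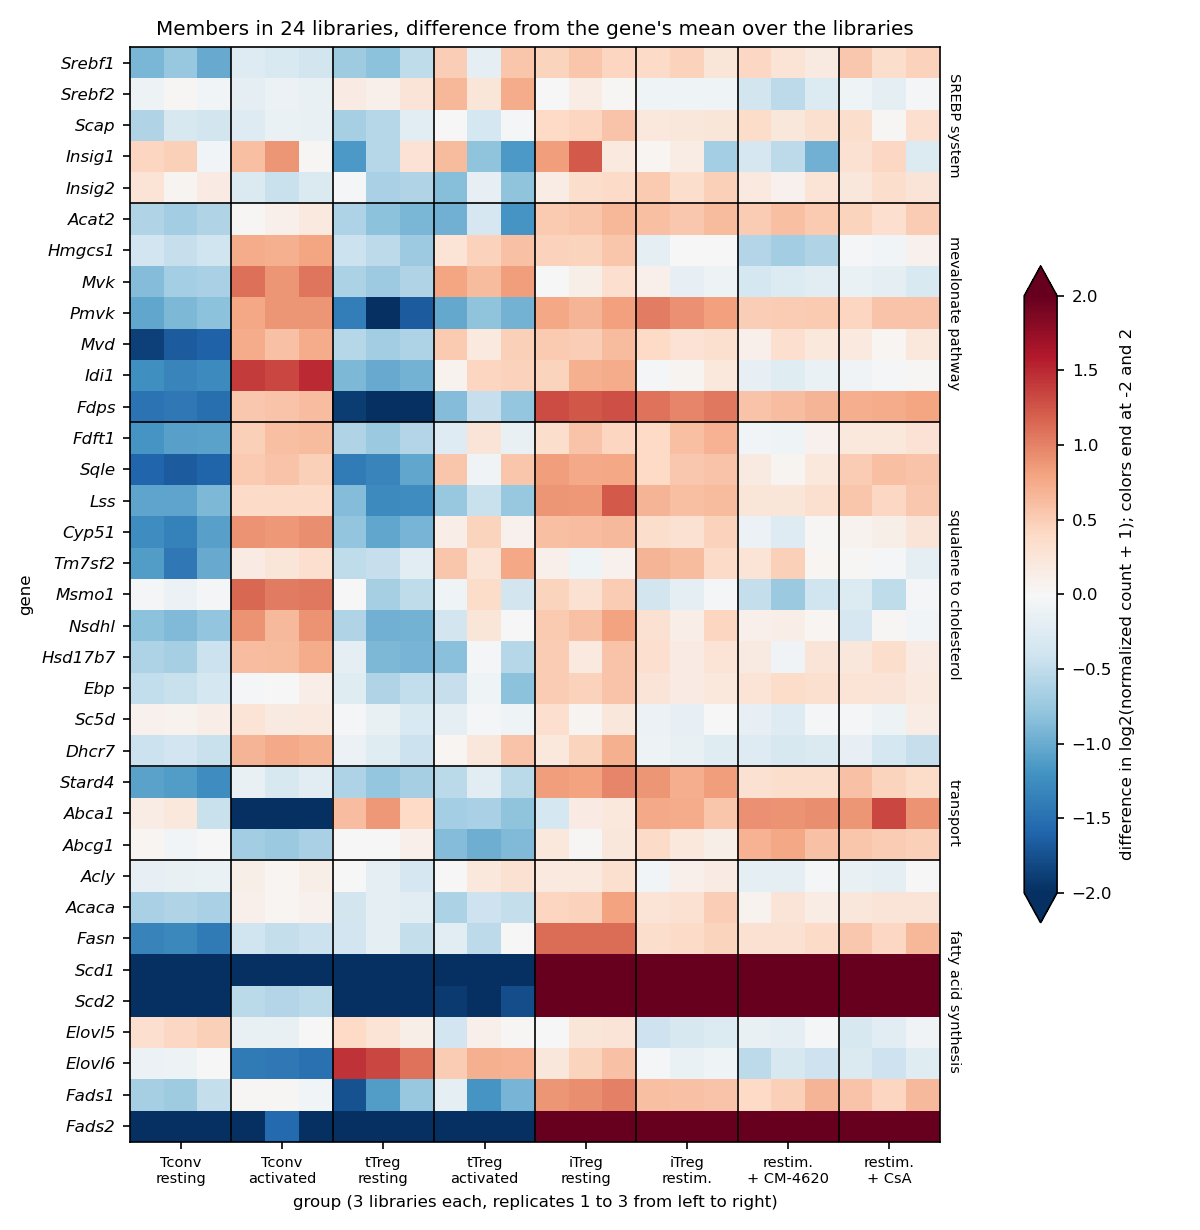
Level of each of the 35 genes (rows, grouped by role) in each of the 24 libraries (columns, 3 per group), as the difference of the log2 of the normalized count plus 1 from the mean of that gene over the libraries; red is above the mean, blue below, and the colors end at a difference of 2 in either direction. Most mevalonate and sterol genes are blue in resting Tconvs and tTregs and red in activated Tconvs and iTregs, while *Abca1* is blue in activated Tconvs and *Scd1*, *Scd2* and *Fads2* are red in the iTreg groups alone.

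The members lay on many chromosomes, and 4 desaturase genes lay on chromosome 19. On GRCm38 these were *Scd2* (chr19:44293674-44306864, plus strand), *Scd1* (chr19:44394455-44407879, minus strand), *Fads2* (chr19:10062765-10101746, minus strand) and *Fads1* (chr19:10182888-10196877, plus strand). Promoters from RefSeq on GRCm38.p6, 250 bases before to 50 after the start site, were at hand for 27 members. The sterol regulatory element is the textbook binding site of the SREBPs, and its letters TCACNCCAC on either strand were in 1.24% of all 32851 promoters and in 1 member's, that of *Hmgcs1*, which encodes the cytosolic synthase of HMG-CoA at the entry of the mevalonate pathway. The 250 bases before the start of *Hmgcs1* are shown because this is the one member promoter with those letters, given in capitals (5′ to 3′, plus strand, chr13:119690101-119690350):
Hmgcs1: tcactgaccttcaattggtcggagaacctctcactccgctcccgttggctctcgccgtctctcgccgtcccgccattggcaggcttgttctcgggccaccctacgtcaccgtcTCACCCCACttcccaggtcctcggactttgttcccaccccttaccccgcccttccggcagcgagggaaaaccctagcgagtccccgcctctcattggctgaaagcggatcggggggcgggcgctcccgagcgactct
The match began 137 bases before the start site. CCAAT, the letters bound by NF-Y, was in 22 of the 35 promoters of these 27 members and in 37.4% of all promoters, GGGCGG of the Sp1 family in 26 and 35.7%, and CACGTG, an E-box, in 8 and 7.15%. No motif contains another, all were searched on both strands, and a match describes the letters only.

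On activation of Tconvs the mevalonate pathway and the sterol enzymes rose nearly as a whole, the exporters fell, and the fatty acid genes split. Of the 35 members, 23 rose and 4 fell, where 24.5% of the 11495 genes tested rose and 25.7% fell. All 7 mevalonate enzymes rose and so did 9 of the 11 sterol enzymes, with *Ebp* (log2 fold change 0.46, adjusted p = 0.0107 by limma) and *Sc5d* (0.12, adjusted p = 0.244) not past the thresholds. The median log2 fold change was 1.77 over the mevalonate enzymes and 1.39 over the sterol enzymes, beside -0.04 over all genes tested.

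The gene of the isomerase at the point where isoprenoid building blocks are made, *Idi1*, was at 446, 416 and 428 normalized counts in the resting and at 2745, 2632 and 2937 in the activated Tconv libraries. All activated libraries lay above all resting ones, 6.44-fold in the means, with a log2 fold change of 2.68 (SE 0.11, adjusted p = 2.81e-11). *Mvd*, the decarboxylase one step earlier, rose from 157, 182 and 188 to 959.9, 869 and 965, a log2 fold change of 2.40 (SE 0.10, adjusted p = 5.18e-11). *Fdps*, which joins these blocks to farnesyl diphosphate, the last precursor shared with protein prenylation, went from 705, 733 and 689 to 2872, 2931 and 3029, 4.15-fold. The entry enzymes moved less: *Hmgcs1* went from 1011, 959.5 and 1002 to 2223, 2164 and 2300.2, 2.25-fold with a log2 fold change of 1.17 (SE 0.09, adjusted p = 3.11e-08), and *Acat2*, the cytosolic thiolase, rose by a log2 fold change of 0.74. Of the exon sequence of *Acat2*, 39.1% of the 50-mers are shared with *Acat3*, so that its reads are uncertain in all comparisons. So are those of *Acaca* with 30.4% shared, mainly with *Gm5182*, and of *Idi1* with 25.3%, mainly with *Gm13502*. In addition, 26.7% of the exon bases of *Fdps* overlap a gene model on the same strand. The kit does not keep strand, so that reads of the antisense gene that shares 12.1% of the exon bases of *Hmgcs1*, or of *Ctsb*, which shares 18.3% of those of *Fdft1*, cannot be told apart from theirs. The kinases *Mvk* and *Pmvk* rose 3.38-fold and 3.41-fold.

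Among the sterol enzymes, *Sqle*, the squalene epoxidase that is a rate-limiting step after HMG-CoA reduction, was at 264, 251 and 262 normalized counts in resting and 1140.3, 1187 and 1108 in activated Tconvs, a log2 fold change of 2.14 (SE 0.14, adjusted p = 6.98e-09). *Cyp51*, the lanosterol demethylase, went from 529.7, 489.6 and 588 to 2338, 2279 and 2369, 4.35-fold. The groups did not overlap for either gene. The squalene synthase *Fdft1* rose 3.23-fold, *Nsdhl* and *Hsd17b7*, which act in the removal of methyl groups from the sterol ring, 3.14-fold and 2.37-fold, the reductase *Tm7sf2* 2.72-fold, the cyclase *Lss* 2.63-fold, and the methylsterol oxidase *Msmo1* and the last-step reductase *Dhcr7* 2.22-fold and 2.21-fold. The transcripts of the SREBP system moved little beside their targets. *Srebf1* rose 1.50-fold (log2 fold change 0.59, SE 0.15, adjusted p = 0.00353), whereas *Srebf2* was at 1729.9, 1900.3 and 1798 at rest and 1623, 1715 and 1680.4 after activation, lower in every activated library by a log2 fold change of -0.11 (SE 0.11, adjusted p = 0.38) that did not pass. *Scap*, *Insig1* and *Insig2* had log2 fold changes of 0.25, 0.22 and -0.50, none past the thresholds.

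The exporter *Abca1* went the other way, from 75.1, 77.8 and 49.2 normalized counts at rest to 8.08, 12.1 and 12.7 after activation. Every activated library was below every resting one, 6.14-fold in the means, with a log2 fold change of -2.51 (SE 0.23, adjusted p = 2.74e-07). *Abcg1* fell as well, from 1884, 1766 and 1829 to 1125, 1097 and 1162, a log2 fold change of -0.69 (SE 0.07, adjusted p = 9.66e-07), while *Stard4*, a soluble carrier of cholesterol between membranes, rose 1.88-fold.

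In the fatty acid group 5 genes rose, 2 fell and 2 did not pass. *Scd2*, a stearoyl-CoA desaturase that makes oleate from stearate, changed most of all members, from 72.0, 79.7 and 93.9 to 946, 916 and 939 normalized counts, 11.4-fold, with a log2 fold change of 3.50 (SE 0.12, adjusted p = 3.7e-12). The synthase *Fasn* rose 1.89-fold and the acetyl-CoA carboxylase *Acaca* 1.63-fold. Against them *Elovl6*, the elongase that turns palmitate into stearate, fell from 495, 499 and 533 to 200.2, 198 and 190.3, a log2 fold change of -1.37 (SE 0.11, adjusted p = 5.3e-08), and *Elovl5*, an elongase of polyunsaturated acids, fell by 0.51 on the log2 scale (adjusted p = 0.00176 by limma). *Fads2*, the first desaturase of the polyunsaturated route, had 0, 0 and 0 reads at rest and 4, 8 and 4 after activation, at least 4.60-fold higher against a floor of 3 reads over the resting libraries, a bound that covers counting error only. *Fads1* had a log2 fold change of 0.62 (SE 0.23, adjusted p = 0.031). *Acly* was at 3473, 3514 and 3563 at rest and 4243, 4025 and 4217 after activation, short of the fold threshold with 0.24 (SE 0.09, adjusted p = 0.0278). The call of *Fads1* was lost without any one of activated replicates 1 to 3 or resting replicates 1 and 2 (adjusted p from 0.0545 without activated replicate 3 to 0.0846 without resting replicate 2). That of *Elovl5* was lost without activated replicate 1 or 2 or resting replicate 3 (log2 fold changes of -0.48, -0.48 and -0.48) and under 3 of the other scalings or tests, where it lay between -0.49 and -0.47.

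**Figure D2:**
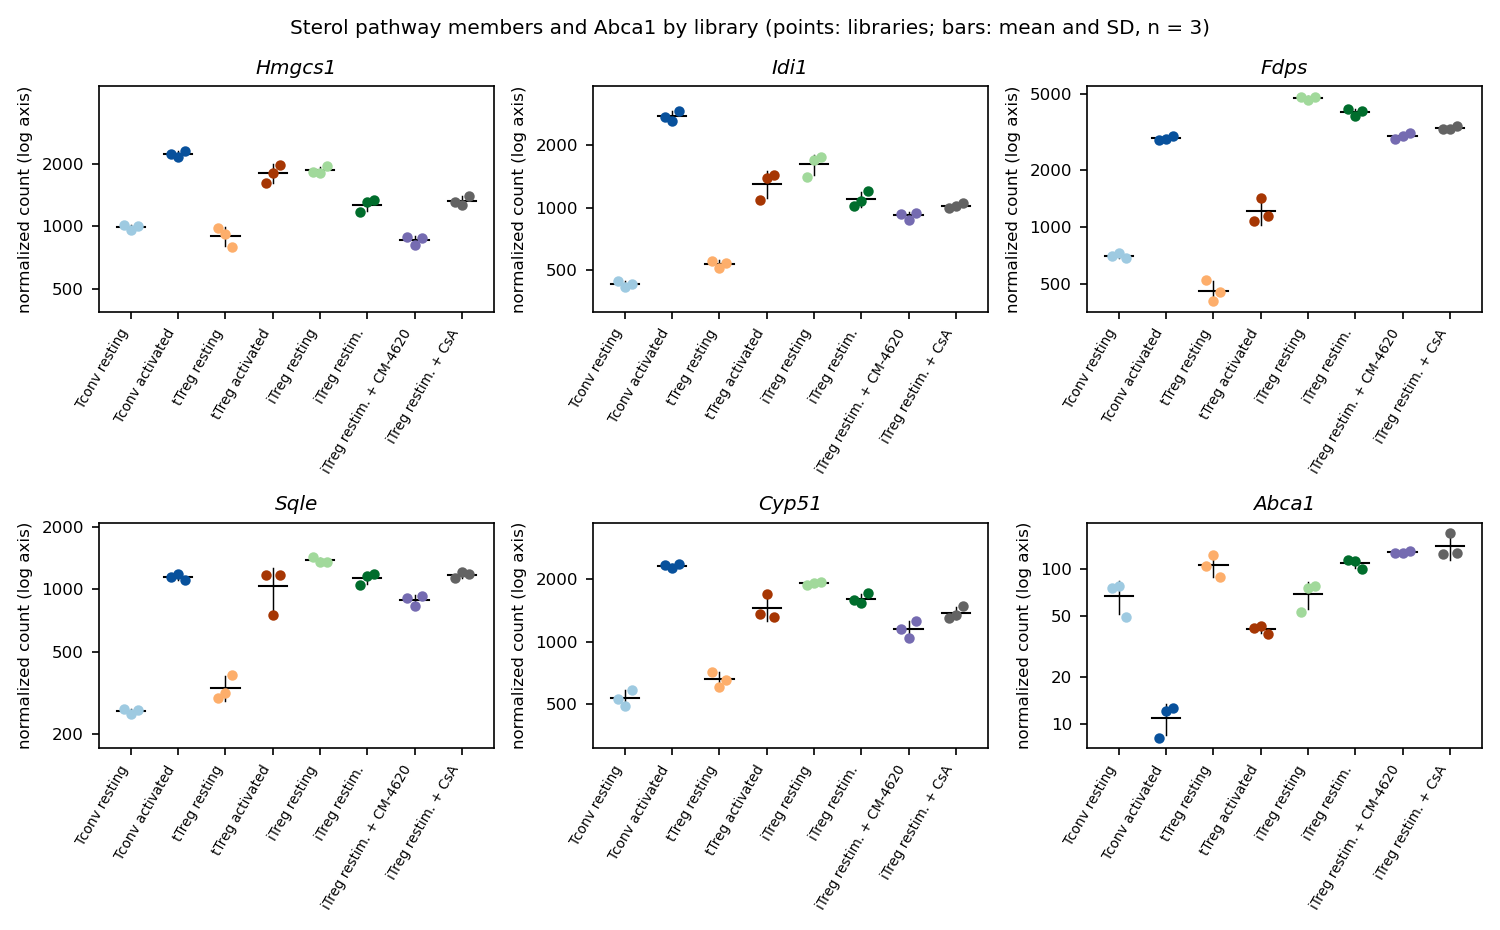
Normalized counts (log axes) of 5 genes of the sterol pathway and of the exporter *Abca1* in each library of the 8 groups; points are libraries, horizontal bars the means and vertical bars the SD (n = 3). *Idi1* rises from a mean of 430.1 in resting to 2771 in activated Tconvs, *Fdps* is highest in resting iTregs with 4779, *Hmgcs1* is lowest in restimulated iTregs with CM-4620 with 859, and *Abca1* is lowest in activated Tconvs.

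tTregs raised fewer members on activation, and by smaller steps. Of the 35, 15 rose and 3 fell, where 11.9% of all genes tested rose and 10% fell. tTreg replicates varied more than those of Tconvs. The variance between pairs of replicates was 12.7 to 36.3 times that of counting in tTregs and 3.01 to 9.35 times in Tconvs. The fit estimated the spread of each gene over all its groups together. Standard errors and p-values may thus understate the spread of tTregs, here and wherever tTregs are compared. Of the mevalonate enzymes 6 of 7 rose, where the list's median was 1.03 on the log2 scale, and of the sterol enzymes 6 of 11, with a median of 0.54, beside 0 over all genes tested. *Sqle* was at 300.3, 317 and 387 normalized counts at rest and 1169, 754 and 1169.8 after activation, 3.08-fold higher, with a log2 fold change of 1.60 (SE 0.14, adjusted p = 2.24e-06). *Mvk* rose from 156, 147 and 159 to 420.2, 380.3 and 436, a log2 fold change of 1.41 (SE 0.11, adjusted p = 9.7e-07). *Hmgcs1* went from 979, 920.0 and 796 to 1609, 1815 and 1979.9, 2.01-fold. For all 3 genes the activated libraries lay above the resting ones without overlap. *Fdps* and *Idi1* rose 2.62-fold and 2.44-fold, and *Srebf1* rose from 856, 793 and 984 to 1979.6, 1238 and 2064, a log2 fold change of 0.97 (SE 0.15, adjusted p = 0.000254). Activated tTreg replicate 2 was lower than the other two for *Srebf1* and *Sqle* and higher for *Acat2* (451, 693 and 387), *Fdft1* (742, 1052 and 796) and *Nsdhl* (283, 432 and 363).

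*Abca1*, from 104, 123 and 88.8 to 41.7, 42.6 and 38.1, and *Abcg1*, from 1839, 1814 and 1962 to 999, 927 and 988, fell in tTregs as well, with log2 fold changes of -1.34 (SE 0.23, adjusted p = 0.000599) and -0.95 (SE 0.07, adjusted p = 7.83e-07). In the fatty acid group *Scd2* rose 1.82-fold, *Elovl6* fell by 0.65 on the log2 scale, and *Fads2* went from 0, 0 and 0 to 3, 5 and 1 reads, at least 3.51-fold higher against the floor of 3 reads over the resting libraries. *Fasn* (0.11), *Acaca* (-0.25), *Lss* (0.48), *Msmo1* (0.37) and *Hsd17b7* (0.18) did not pass the thresholds on the log2 scale in tTregs. *Dhcr7* rose by 0.54 but lost its call without activated replicate 3 (0.40) or resting replicate 3 (0.46) and when the tTreg groups alone were fitted (adjusted p = 0.0584 by limma), and *Fdft1* (0.59) lost it without activated replicate 2 (0.44).

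The difference between both responses was tested as an interaction in the same fit, and it passed for 19 members. The response of Tconvs was the more positive one for 17 of the 35 and the more negative one for 2, where 17% and 17.7% of all genes tested passed in these directions. The 13 of 18 mevalonate and sterol enzymes that passed all had the larger rise in Tconvs, and the median difference over the 18 was 0.78 on the log2 scale beside -0.05 over all genes tested. *Scd2* differed most, by 2.64 (SE 0.16, adjusted p = 1.73e-08), followed by *Idi1* with 1.41 (SE 0.15, adjusted p = 4.36e-06) and *Mvd* with 1.37 (SE 0.14, adjusted p = 3.18e-06). *Abca1* differed by -1.17 (SE 0.33, adjusted p = 0.0112) and *Elovl6* by -0.72 (SE 0.15, adjusted p = 0.0019), with the larger fall in Tconvs. Not every enzyme differed in this way. *Hmgcs1* (0.17, adjusted p = 0.323 by limma), *Mvk* (0.34, 0.105) and *Tm7sf2* (0.50, 0.0989) did not pass, and neither did any gene of the SREBP system, of which *Srebf2* came closest with -0.48 (SE 0.15, adjusted p = 0.0197).

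The difference of *Sqle*, 0.54 (SE 0.20, adjusted p = 0.0445), was lost without any one of 9 of the 12 Tconv and tTreg libraries, the others being tTreg activated replicates 1 and 3 and resting replicate 1, with a log2 difference of 0.33 without activated tTreg replicate 2 and the highest adjusted p, 0.101, without resting tTreg replicate 3. It was also lost with no filter (adjusted p = 0.0565) and in a fit of these groups alone (0.068). That of *Dhcr7* was lost without Tconv activated replicate 2 (adjusted p = 0.0538 by limma), Tconv resting replicate 3 (0.0506), tTreg activated replicate 1 (0.0631) or tTreg resting replicate 1 (0.0549). Proliferation markers moved with the difference: 5 of 12 passed as more positive in Tconvs and 1 as more negative, and their summed level rose further in Tconvs than in tTregs by the ranges given above. Their part in the difference was not tested.

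**Figure D3:**
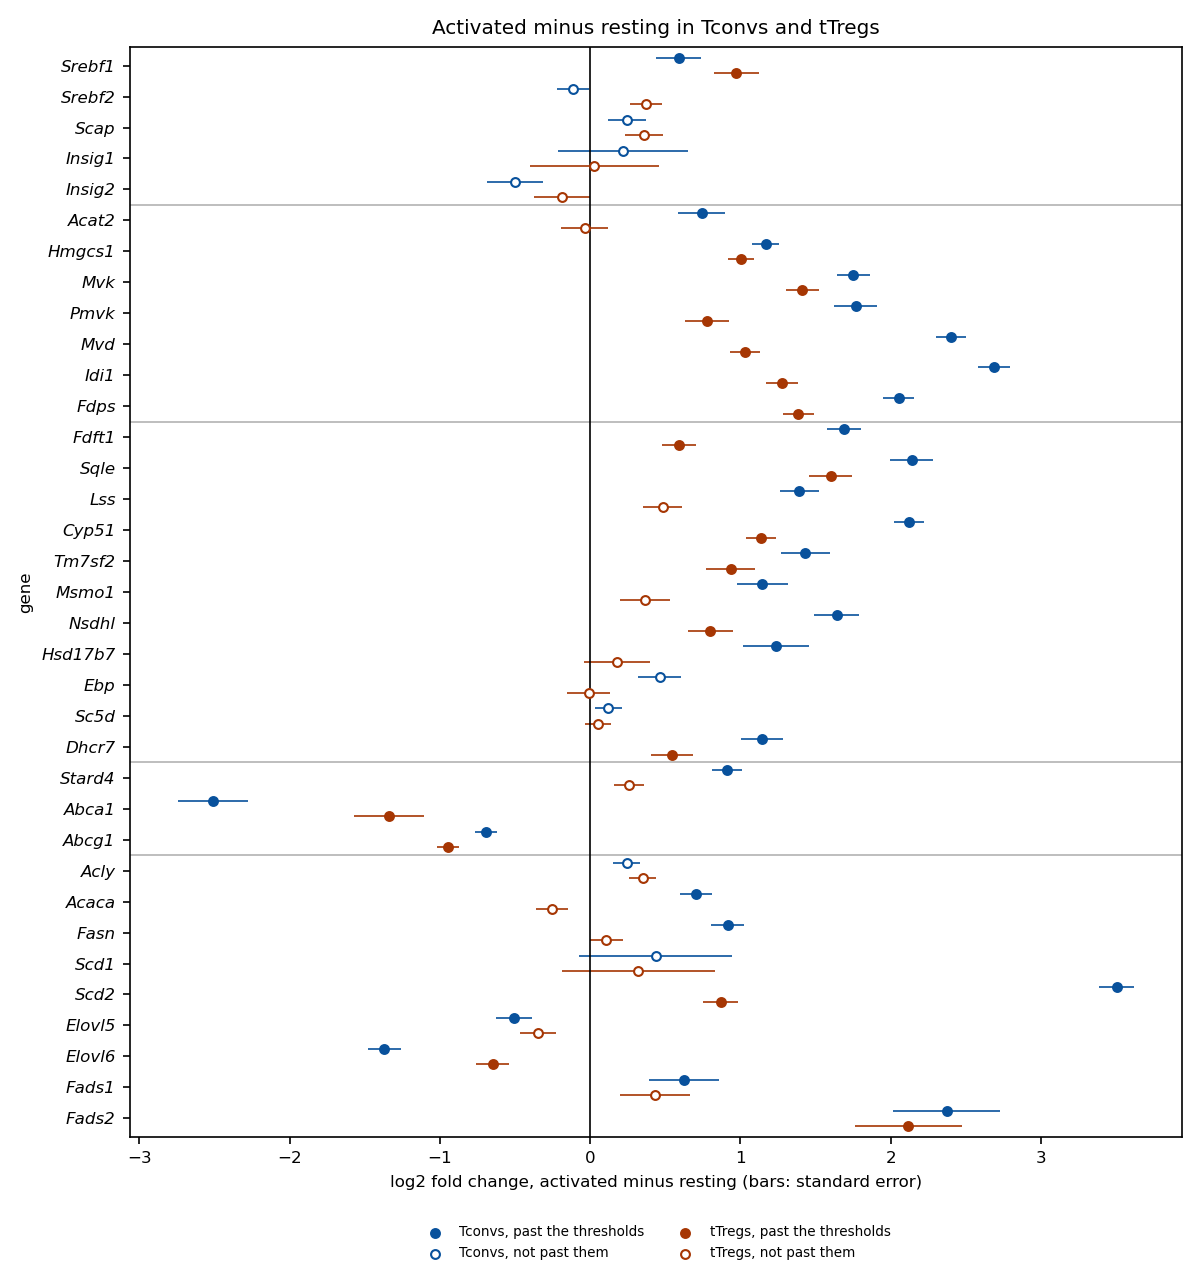
Log2 fold change between activated and resting cells (horizontal axis, bars are standard errors of the limma fit) for each of the 35 genes (rows, in order of role) in Tconvs (blue) and tTregs (brown); filled points passed the thresholds and open points did not. The blue points lie to the right of the brown ones for most mevalonate and sterol genes, by 1.41 for *Idi1* and 1.37 for *Mvd*, and both exporters lie to the left of 0 in both cell types.

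Of 42 other genes of these pathways, 35 were tested. In Tconvs 11 rose and 8 fell on activation with a median log2 fold change of -0.03, and in tTregs 1 rose and 1 fell with a median of 0.10. *Tmem97*, a sterol-regulated membrane protein that binds Npc1, had the largest change of the other sterol genes in Tconvs with 1.84 (SE 0.16, adjusted p = 1.37e-07), and *Mylip*, a ligase of lipoprotein receptors that is a target of liver X receptors like the exporters, that of the control genes with -2.67 (SE 0.37, adjusted p = 1.86e-05). In tTregs the largest change of the other sterol genes was that of *Aacs*, which activates acetoacetate for synthesis, with 0.78 (SE 0.15, adjusted p = 0.00145). Of 17 genes of fatty acid oxidation, the opposing route, 9 rose and 2 fell in Tconvs and 7 rose and none fell in tTregs.

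At rest, tTregs and Tconvs differed in a few members and in both directions. In tTregs 6 were higher and 4 lower, beside 20.5% and 18.2% of all genes tested, and the median over the 35 was 0 on the log2 scale. *Elovl6* was at 1465, 1355 and 1134 normalized counts in tTregs against 495, 499 and 533 in Tconvs, 2.59-fold higher, with a log2 fold change of 1.36 (SE 0.11, adjusted p = 8.32e-08). *Scd2* (2.44-fold), *Mvd* (2.12-fold), *Fasn* (2.00-fold) and *Tm7sf2* (1.73-fold) were higher in resting tTregs too. *Pmvk*, the phosphomevalonate kinase, was lower there, at 116, 71.4 and 94.5 against 147, 161 and 171, and *Fdps* was 1.53-fold lower. The calls of 3 further members depended on which libraries were in the fit. *Abca1* (0.66) lost its call without resting Tconv replicate 3 (adjusted p = 0.148 by limma) or resting tTreg replicate 1 (0.0583) or 2 (0.109) and with quantile normalization (0.068). *Insig2* (-0.58) lost its call without resting Tconv replicate 1 (0.0607) or resting tTreg replicate 2 (0.0776) or 3 (0.0639). *Fads1* (-0.58, adjusted p = 0.0494 by limma) lost its call without any library of both groups other than resting tTreg replicate 3, with a log2 fold change of -0.32 without resting tTreg replicate 1, and under 6 alternatives of scaling, filter or test.

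After activation the enzymes stood lower in tTregs. There 13 members were lower and 4 higher than in activated Tconvs, beside 22.6% lower and 25.6% higher of all genes tested. The lower ones included 4 of 7 mevalonate and 6 of 11 sterol enzymes, and the higher ones included none of these 18. *Pmvk* was at 148, 173 and 156 normalized counts in activated tTregs and 517, 561 and 559.7 in activated Tconvs, 3.43-fold lower, with a log2 fold change of -1.77 (SE 0.14, adjusted p = 9.6e-08). *Idi1* and *Fdps* were 2.12-fold and 2.42-fold lower, and *Msmo1*, at 681, 941 and 563 against 1605, 1492 and 1513, 2.11-fold. The transcription factors stood the other way. *Srebf2* was 1.64-fold higher in activated tTregs (2944, 2197 and 3112) than in activated Tconvs (1623, 1715 and 1680.4), a log2 fold change of 0.70 (SE 0.11, adjusted p = 4.8e-05), and *Srebf1* 1.55-fold. *Abca1* was 3.72-fold and *Elovl6* 4.27-fold higher. The call of *Srebf1* was lost without activated tTreg replicate 1 (log2 fold change 0.50) or 3 (0.47), and that of *Fads1* (-0.77) without activated tTreg replicate 2 (adjusted p = 0.054 by limma).

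Resting iTregs held most of the pathway above both resting cell types. Against resting Tconvs 25 members were higher and none was lower by limma, edgeR or DESeq2, nor at an unadjusted p below 0.05, beside 32.8% higher and 30.8% lower of all genes tested. Against resting tTregs 27 were higher and 2 lower, beside 32.3% and 31.1%. The 25 and the 27 include *Scd1* and *Fads2*, which were tested only through their level in iTregs. All 7 mevalonate enzymes and 9 of 11 sterol enzymes were higher in each of these comparisons, which share the iTreg libraries, with medians over the 18 of 1.35 and 1.14 on the log2 scale and of 0.02 and 0.02 over all genes tested. *Fdps* was at 4850.3, 4651 and 4837 normalized counts in resting iTregs, 6.74-fold above resting Tconvs (log2 fold change 2.75, SE 0.10, adjusted p = 5.24e-12) and 10.3-fold above resting tTregs (3.37, SE 0.10, adjusted p = 1.17e-12). *Sqle*, at 1423, 1346 and 1352, was 5.30-fold and 4.10-fold higher, and *Lss*, at 773, 768 and 985, 4.02-fold and 4.36-fold. The sterol carrier and parts of the SREBP system were higher too. *Stard4* was at 1222, 1191 and 1340.0, 4.05-fold above resting Tconvs, *Srebf1* at 1907, 2063 and 1898, 2.59-fold, and *Scap* at 770.4, 785 and 874, 1.86-fold. *Srebf2* (1855, 2060.1 and 1899) had log2 fold changes of 0.10 and -0.12 and did not pass in either.

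The widest differences were those of the desaturases. *Scd1*, the stearoyl-CoA desaturase of liver and fat, had 0, 0 and 2 reads in resting Tconvs, 1, 3 and 0 in activated Tconvs, 0, 0 and 0 in resting tTregs, 0, 1 and 0 in activated tTregs and 455, 466 and 685 in resting iTregs. In normalized counts it was at 479.6, 470.1 and 519.7 in resting iTregs, 783-fold above resting Tconvs (95% exact counting interval 216 to 6473, which covers counting error only) and at least 452-fold above resting tTregs. *Fads2* had 342, 423 and 495 reads in resting iTregs and none in resting Tconvs and tTregs, at least 409.7-fold and 355-fold higher against the floor. *Scd2* was at 6809.6, 7107 and 7080.0 normalized counts, 85.5-fold above resting Tconvs (log2 fold change 6.41, SE 0.12, adjusted p = 2.41e-15) and 35.1-fold above resting tTregs. Between *Scd1* and its relatives 4.56% of the exon 50-mers are shared, and 3.97% of those of *Scd2*. *Fasn* was 5.53-fold and 2.76-fold higher and *Fads1* 2.95-fold and 4.27-fold, whereas *Elovl6*, at 625, 727 and 806, did not pass against resting Tconvs (0.49, SE 0.11, adjusted p = 0.000885) and was 1.83-fold lower than in resting tTregs.

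The 2 members below resting tTregs were *Elovl6* and *Abca1*, the latter at 52.7, 75.7 and 78.2 and -0.62 on the log2 scale, a call that was lost without resting tTreg replicate 1 (adjusted p = 0.054 by limma) or 2 (0.102) or resting iTreg replicate 1 (0.13). *Insig1*, a target of the SREBPs as well as their brake, varied widely between replicates, from 219.5, 328 and 595 in resting tTregs to 864, 1141 and 555 in resting iTregs, groups that overlap, and its call (1.22, SE 0.43, adjusted p = 0.0188) was lost without resting tTreg replicate 1 (0.0818) or resting iTreg replicate 2 (0.0824). All 12 proliferation markers were higher in resting iTregs than in either resting cell type. Of the other pathway genes tested, 13 were higher and 7 lower than in resting Tconvs, with a median log2 fold change of 0.09, and 16 and 8 against resting tTregs. *Tmem97* was again the other sterol gene with the largest change, 3.34 (SE 0.16, adjusted p = 7.85e-11) against resting Tconvs.

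**Figure D4:**
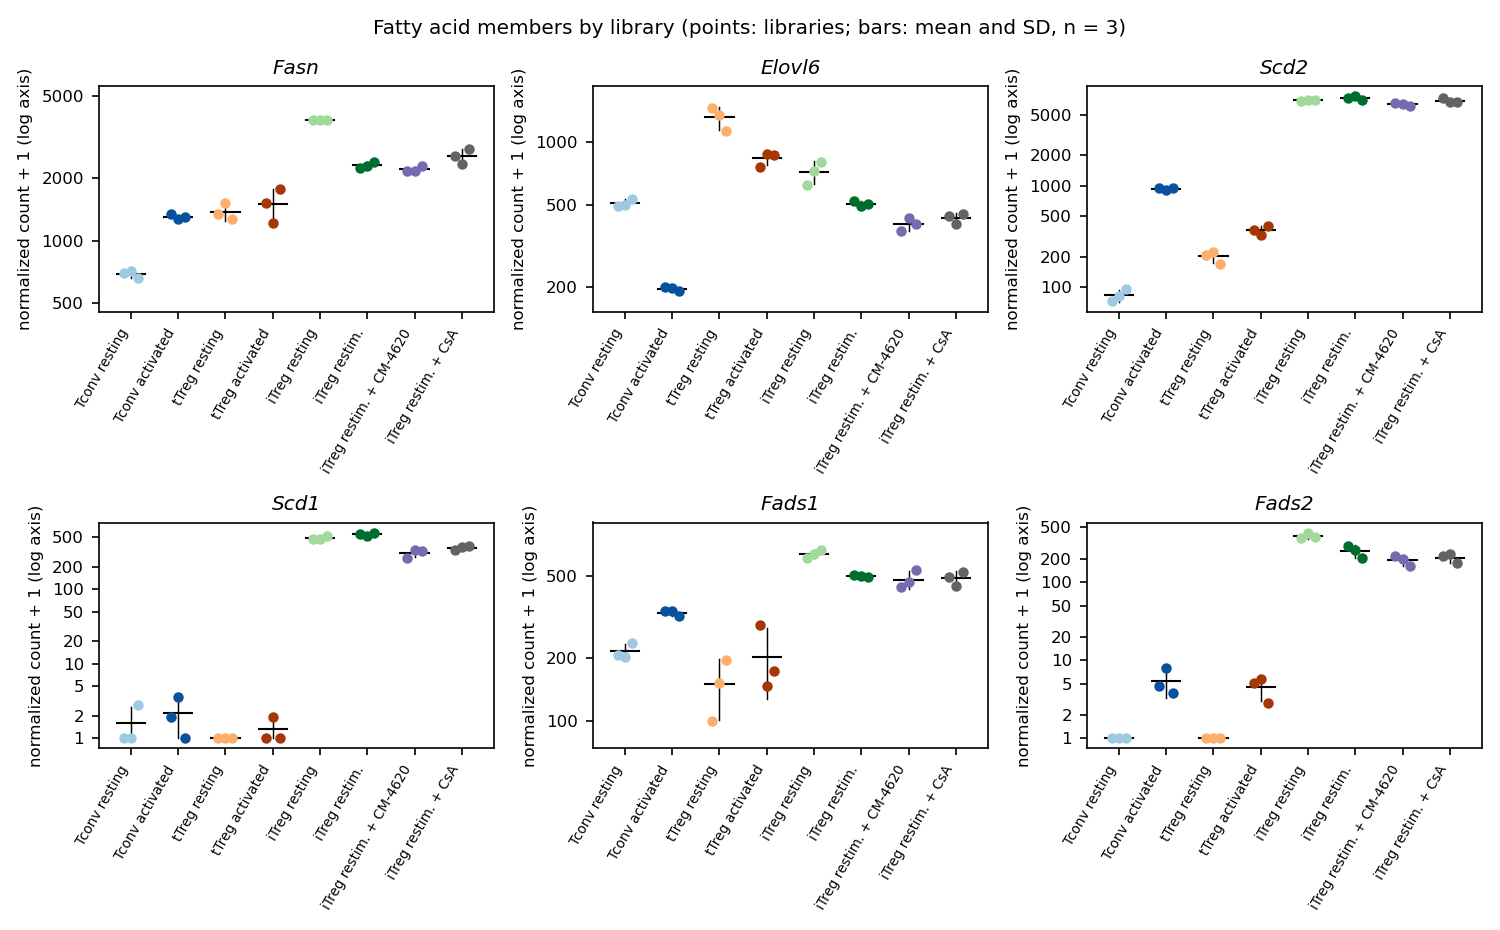
Normalized counts plus 1 (log axes) of 6 genes of fatty acid synthesis, elongation and desaturation in each library of the 8 groups; points are libraries, horizontal bars the means and vertical bars the SD (n = 3). *Scd1* and *Fads2* are near 0 in all Tconv and tTreg libraries and far higher in every library of the iTreg groups, *Scd2* reaches a mean of 6999 in resting iTregs against 934 in activated Tconvs, and *Elovl6* is highest in resting tTregs with 1318.

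Set against activated Tconvs, where 11 of the 12 proliferation markers had risen as well, the sterol enzymes of resting iTregs were near level and the fatty acid genes were not. These groups were not matched in proliferation. Of the 12 markers 10 were higher in resting iTregs than in activated Tconvs, with a median of 4.50 on the log2 scale. Of the 18 mevalonate and sterol enzymes 2 were higher and 3 lower, with a median of -0.16 on the log2 scale, against 6 of 9 fatty acid genes higher and none lower, with a median of 1.55. The 6 and the median include *Scd1* and *Fads2*, which were tested only through their level in iTregs. Over all 35, 14 were higher and 3 lower, beside 22.9% and 18.7% of all genes tested. *Mvk* (-0.87), *Idi1* (-0.78) and *Msmo1* (-0.66) were lower on the log2 scale and *Fdps* (0.70) and *Lss* (0.60) higher, the call of *Lss* being lost without resting iTreg replicate 3 (0.48). *Scd2* was 7.50-fold higher, *Elovl6* 3.67-fold, *Fasn* 2.93-fold and *Fads2* 89.1-fold (95% exact counting interval 54.7 to 156). All 3 transport genes were higher, *Abca1* 6.28-fold, *Stard4* 2.15-fold and *Abcg1* 1.81-fold.

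Restimulation of iTregs lowered more members than it raised. Of the members 8 fell and 2 rose, beside 6.13% and 6.7% of the 11105 genes tested in the iTreg libraries, and the median over the 35 was -0.24 on the log2 scale beside -0.01 over all genes tested. *Fasn* fell from 3811, 3814 and 3832 normalized counts to 2236, 2295 and 2393, 1.65-fold lower in the means, with a log2 fold change of -0.73 (SE 0.06, adjusted p = 4.97e-07). *Hmgcs1* fell from 1823, 1804 and 1942 to 1171, 1311 and 1332, a log2 fold change of -0.55 (SE 0.07, adjusted p = 2.13e-05). *Msmo1*, from 993, 901 and 1033 to 564, 634 and 706, fell by 0.62 on the log2 scale. None of the restimulated libraries reached a resting one for these genes. *Dhcr7* (1.55-fold), *Idi1* (1.47-fold), *Fads2* (1.56-fold), *Elovl6* (1.43-fold) and *Insig1* (1.91-fold) fell too. The 2 that rose were *Abca1*, from 52.7, 75.7 and 78.2 to 115, 113 and 99.9 (0.68, SE 0.16, adjusted p = 0.0049), and *Tm7sf2*, from 102, 89.8 and 101 to 152, 148 and 124 (0.53, SE 0.13, adjusted p = 0.00786). *Scd1* was at 557, 519 and 572 and *Scd2* at 7383, 7647 and 7107 after restimulation, with log2 fold changes of 0.17 and 0.08 that did not pass.

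Several of these changes lay close to the fold threshold. The log2 fold change fell inside it for *Abca1* without resting replicate 1 (0.50), *Dhcr7* without resting replicate 3 (-0.49), *Idi1* without resting replicate 3 (-0.49), *Hmgcs1* without restimulated replicate 1 (-0.49), *Elovl6* without resting replicate 2 (-0.49) or 3 (-0.42) or restimulated replicate 2 (-0.48). So it did for *Tm7sf2* without resting replicate 2 (0.47) or restimulated replicate 1 (0.47) or 2 (0.49). *Insig1* lost its call without resting replicate 2 (adjusted p = 0.078 by limma) or restimulated replicate 3 (0.0814), and in a fit of all 24 libraries its adjusted p was 0.118 and that of *Fads2* 0.0951. *Elovl6* also came inside the threshold with other scaling (-0.50 and -0.49). The genes of fatty acid oxidation had a median log2 fold change of 0.24, with 2 of 17 past the thresholds as higher, of which *Cpt1a*, the carnitine transferase that admits fatty acids to mitochondria, had the largest change with 0.61 (SE 0.10, adjusted p = 0.000531). None of the 12 proliferation markers passed by limma, edgeR or DESeq2, with 11 lower at an unadjusted p below 0.05 and a median of -0.30.

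Both inhibitors lowered a few members below the level of restimulation without inhibitor and raised none. With CM-4620, 3 members were lower and none was higher by limma, edgeR or DESeq2 (2 higher at an unadjusted p below 0.05 by limma), beside 1.79% lower and 1.5% higher of all genes tested. *Scd1* was at 266, 341 and 326 normalized counts with CM-4620 against 557, 519 and 572 without, 1.77-fold lower, with a log2 fold change of -0.83 (SE 0.09, adjusted p = 5.76e-05). *Hmgcs1* was at 887, 816 and 876 against 1171, 1311 and 1332, a log2 fold change of -0.56 (SE 0.07, adjusted p = 9.02e-05), and *Fdft1* at 851, 836 and 935 against 1171, 1339 and 1432, a log2 fold change of -0.59 (SE 0.08, adjusted p = 0.00028). The groups did not overlap for any of the 3. With CsA, 2 members were lower and none was higher by any of these tools (3 higher at an unadjusted p below 0.05), beside 1.35% and 1.57%. These were *Scd1*, at 340.4, 367 and 377, with a log2 fold change of -0.60 (SE 0.09, adjusted p = 0.00101), and *Tm7sf2*, at 96.1, 93.4 and 83.2 against 152, 148 and 124, with -0.63 (SE 0.13, adjusted p = 0.00873). In a fit of all 24 libraries the adjusted p of *Scd1* was 0.322 with CM-4620 and 0.509 with CsA.

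*Hmgcs1* was lower in restimulated than in resting iTregs and lower still in those restimulated with CM-4620, whereas with CsA it was at 1303, 1271 and 1402. It was the member that passed between the inhibitors, 1.54-fold lower with CM-4620, a log2 fold change of -0.62 (SE 0.07, adjusted p = 0.000185), beside 0.261% lower and 0.0991% higher of all genes tested. *Insig1*, at 384, 337 and 250.1 with CM-4620 and 603, 648 and 399.8 with CsA, was lower in every library with CM-4620 but did not pass (-0.76, SE 0.26, adjusted p = 0.276). That fit left out the replicate number. With the replicate number as a block the same difference passed, with an adjusted p of 0.000258 by limma. The comparisons of either inhibitor with none share the restimulated libraries. The median over the 18 mevalonate and sterol enzymes was -0.28 with CM-4620, -0.16 with CsA and -0.13 between the inhibitors on the log2 scale, against 0.00842, -0.00310 and 0.00660 over all genes tested. In summed normalized counts the 18 were at 21136, 21054 and 22486 in resting iTregs, 17694, 17418 and 18429.5 on restimulation, 14266, 14199.7 and 14933 with CM-4620 and 15845, 15685 and 16638 with CsA. Of the other pathway genes none passed with either inhibitor by limma, edgeR or DESeq2, with 7 at an unadjusted p below 0.05 with CM-4620 and 8 with CsA by limma, and of the fatty acid oxidation genes *Acadm*, the medium-chain acyl-CoA dehydrogenase, was higher with CsA by 1.06 (SE 0.08, adjusted p = 1.66e-06). The proliferation markers summed to 44206 to 47421 normalized counts on restimulation, 47008 to 48891 with CM-4620 and 44747 to 46889 with CsA.

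**Figure D5:**
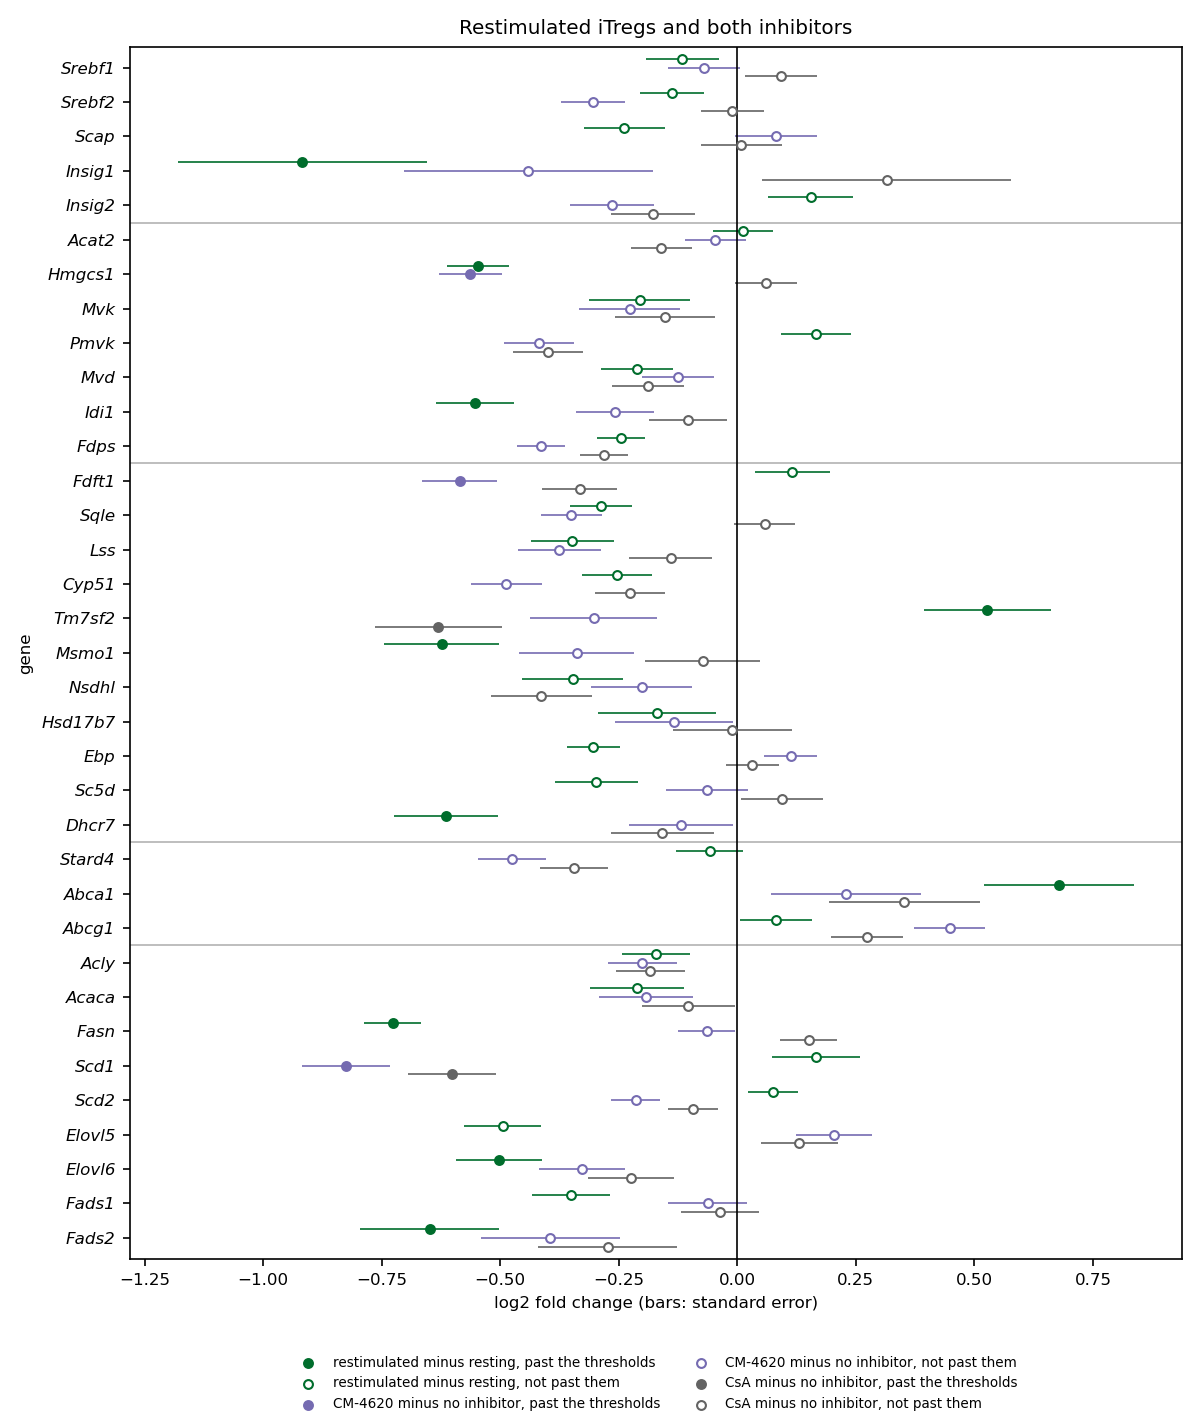
Log2 fold changes (horizontal axis, bars are standard errors of the limma fit) of the 35 genes (rows, in order of role) in iTregs for restimulated minus resting cells (green), CM-4620 minus no inhibitor (purple) and CsA minus no inhibitor (gray); filled points passed the thresholds and open points did not. *Hmgcs1* lies at -0.55 on restimulation, at -0.56 with CM-4620 and at 0.06 with CsA, and *Scd1* lies left of 0 with both inhibitors.

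Compared with activated cells of the other types, restimulated iTregs had the exporters and desaturases higher, while mevalonate and sterol enzymes were in part lower than in Tconvs and in part higher than in tTregs. Against activated Tconvs 11 members were higher and 7 lower, beside 24.4% and 20% of the 11725 genes tested over all libraries. The 7 lower ones were all mevalonate or sterol enzymes, with *Idi1* at 1022, 1080.3 and 1202 against 2745, 2632 and 2937, 2.52-fold lower (-1.33, SE 0.09, adjusted p = 8.58e-11), *Msmo1* 2.42-fold and *Mvk* 2.11-fold lower, and none of these 18 was higher by limma, edgeR or DESeq2 (4 higher at an unadjusted p below 0.05 by limma). *Abca1* was 9.97-fold higher (3.23, SE 0.20, adjusted p = 9.35e-12), *Abcg1* 1.92-fold and *Scd2* 7.90-fold. Against activated tTregs 17 were higher and 3 lower, beside 30.5% and 28.8%, and of the 18 mevalonate and sterol enzymes 7 were higher and 1 lower. The 11 and the 17 include *Scd1* and *Fads2*, which were tested only through their level in iTregs. *Pmvk* was 3.62-fold and *Fdps* 3.31-fold higher, and *Mvk* (-0.81), *Srebf2* (-0.63) and *Elovl6* (-0.73) were lower on the log2 scale. *Cyp51* (-0.53) lost its call against Tconvs without restimulated replicate 2 (-0.49), and *Nsdhl* (-0.52) without activated Tconv replicate 1 (-0.48) or 3 (-0.48) or restimulated replicate 2 (-0.44). Against tTregs *Ebp* (0.67) lost it without activated tTreg replicate 3 (0.48) and *Fasn* (0.64) without activated tTreg replicate 2 (0.49).

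The enzymes closest to the shared pattern of the pathway were *Cyp51* and *Nsdhl*. Each gene's log2 values were set against the mean z-score of the 18 mevalonate and sterol enzymes over the 24 libraries. For an enzyme of the 18, that enzyme was left out of the mean. This is a description only, since the libraries fall into groups. The mean of all 18 was -1.26, -1.28 and -1.12 in resting Tconvs, 1.04, 0.989 and 1.11 in activated Tconvs, -0.271, 0.167 and -0.103 in activated tTregs and 0.830, 0.741 and 1.03 in resting iTregs. Pearson's r was 0.97 for *Cyp51*, 0.97 for *Nsdhl*, 0.93 for *Fdft1* and 0.93 for *Idi1*, and it was lowest among the 18 for *Sc5d* with 0.41 and *Msmo1* with 0.58. Of the SREBP system *Srebf1* had 0.62 and *Srebf2* -0.22, and *Elovl6* (-0.54), *Elovl5* (-0.52) and *Abca1* (-0.41) ran against the mean. The genes outside the set with the highest r were *Spcs3* (0.95), *Fh1* (0.95), *Psmd14* (0.95), *Calr* (0.95) and *Ndufs8* (0.95). Their r was above that of every enzyme of the 18 but *Cyp51* and *Nsdhl*, so the pattern was not particular to these enzymes. *Acly* and *Sc5d* passed the thresholds in none of the 14 comparisons by limma, and *Elovl5* passed in 1.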

How the data were processed

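RNA-seq libraries of 8 groups of mouse CD4+ T cells, 3 per group, were analysed over 21950 genes. Per the labels, poly(A) RNA was made into unstranded libraries by a modified SMART-seq2 protocol without molecular identifiers. According to the methods and processing notes the authors trimmed reads with Cutadapt 1.18, aligned them to mm10 with STAR 2.5.3, quantified genes with RSEM 1.3.0 on the GENCODE annotation of GRCm38 and normalized with DESeq2 1.26. The deposited signal values are gene counts that the authors divided by one size factor per library, and 100% of them were whole multiples of 1 read within 0.0001, so that reads could be recovered for all 24 libraries. Recovered depth was 5256800 to 15685234 reads, and intervals and floors cover counting error only.

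Genes at 10 or more normalized counts in at least 3 libraries of a fit were tested with limma 3.58.1 (R 4.3.3, trended prior) on log2 of the normalized count plus 1. Separate fits held the 15 Tconv, tTreg and resting iTreg libraries (11495 genes), the 12 iTreg libraries (11105 genes) and, for restimulated iTregs against activated cells, all 24 (11725 genes). Calls took a Benjamini-Hochberg adjusted p of less than 0.05 over all genes tested with a log2 fold change of more than 0.5 in size, the thresholds of the study's methods. Alternatives were a log2 fold change above 1, other scalings, pseudocounts of 0.1 and 5, and no filter or one of 100. Others were the replicate number as a block, other sets of libraries, edgeR 4.0.16 and DESeq2 1.42.0 on recovered reads, and each library left out. The limma fits of the 15 and of the 12 libraries were tested on simulated data, in the first comparison of each. The fit of all 24 libraries, edgeR and DESeq2 were not. Levels between genes were compared per kilobase of merged exons. Shared sequence was counted over 50-mers of the exons, and gene positions came from the GENCODE annotation of GRCm38. Members, pathway lists and markers were chosen with earlier results of these data known. Members were named by their roles, and other pathway genes by the largest change of a list within a comparison. Promoters were from RefSeq; 8 members without one were not searched.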

Additional observations from a re-analysis of the deposited data

Results flagged for a closer look

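The response to activation differed between Tconvs and tTregs, by the interaction term of limma, for 19 members. Among the mevalonate enzymes the log2 fold change of Tconvs exceeded that of tTregs by 1.41 for *Idi1*, 1.37 for *Mvd*, 0.99 for *Pmvk*, 0.78 for *Acat2* and 0.67 for *Fdps*. Among the sterol enzymes it did so by 1.10 for *Fdft1*, 1.05 for *Hsd17b7*, 0.98 for *Cyp51*, 0.91 for *Lss*, 0.84 for *Nsdhl*, 0.78 for *Msmo1*, 0.60 for *Dhcr7* and 0.54 for *Sqle*. For the carrier *Stard4* the difference was 0.65 and for the exporter *Abca1* -1.17, and among the fatty acid genes it was 2.64 for *Scd2*, 0.96 for *Acaca*, 0.81 for *Fasn* and -0.72 for *Elovl6*.

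In restimulated iTregs *Hmgcs1* was lower with CM-4620 than with CsA by a log2 fold change of -0.62 (SE 0.07, adjusted p = 0.000185) by limma, in 3 of 3 libraries against each of the 3 with CsA. Groups of 3 libraries were not searched for single libraries that stand apart.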

How the results depend on the processing

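Of the 216 calls of members none reversed over 3955 alternatives of single calls. Many of these could not reverse. A higher fold threshold, another filter, the replicate block and another set of groups all keep the difference of the group means. At a log2 fold change above 1, 103 of the 216 were lost. The counts of members called were then 9 for tTreg activation, 6 for the interaction, 3 and 9 for tTregs against Tconvs at rest and activated, 7 for resting iTregs against activated Tconvs, 9 and 12 for restimulated iTregs against activated Tconvs and tTregs, and 0 for restimulation, CM-4620, CsA and CM-4620 against CsA by limma, where 10, 3, 2 and 1 passed with the threshold of 0.5. A fit of all 24 libraries called 1 member with CsA. In the first fit replicate numbers did not pair the libraries: same-numbered libraries deviated together with a mean correlation of -0.007, with 6 of 30 pairs above 0.1. Among iTregs same-numbered libraries did deviate together in part, with a mean correlation of 0.152 and 10 of 18 pairs above 0.1. Differently numbered iTreg libraries had a mean of -0.0754. The reported iTreg fits left this out, and its source was not tested. With the replicate number as a block, 2 members differed between CM-4620 and CsA instead of 1, *Insig1* being added with a log2 fold change of -0.76 (adjusted p = 0.000258 by limma), and all other counts of members were within 1.5 times the reported ones. With each library left out in turn the counts ran, in the order of the comparisons, from 25 to 27 for Tconv activation, 18 to 20 for tTreg activation, 17 to 21 for the interaction, 8 to 10 and 17 to 18 for tTregs against Tconvs at rest and activated, 25 to 27, 16 to 19 and 27 to 30 for resting iTregs against resting Tconvs, activated Tconvs and resting tTregs, 7 to 10 for restimulation, 3 to 5 with CM-4620, 2 to 2 with CsA, 1 to 1 between the inhibitors, and 17 to 18 and 19 to 22 for restimulated iTregs against activated Tconvs and tTregs. The 5 with CM-4620 came without restimulated replicate 2. Of 1410 such refits of single calls 62 lost the call, and the causes were not tested. A filter of 100 removed *Abca1*, and with it 7 calls, from the Tconv, tTreg and resting iTreg fit, and fits of the groups compared alone removed *Fads2* and 2 calls. Among members still tested, each of the other settings ended at most 4 calls. With 3 libraries per group and as few as 5256800 reads, changes of *Scd1* and *Fads2* outside iTregs rest on single reads.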

Other observations

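Of the other pathway genes tested, 3 were higher and 11 lower in resting tTregs than in resting Tconvs, where 35 were tested and 20.5% and 18.2% of all genes were. *Elovl7*, an elongase of saturated acids, had the largest change of the other fatty acid genes with a log2 fold change of -4.31 (SE 0.37, adjusted p = 2.04e-07) by limma, and *Npc2*, which hands cholesterol out of lysosomes, that of the other sterol genes with -1.45 (SE 0.10, adjusted p = 1.12e-08). In activated cells *Npc2* was lower in tTregs too, with -2.05 (SE 0.10, adjusted p = 2.99e-10). *Acss2*, which makes acetyl-CoA from acetate, was lower in resting iTregs than in resting Tconvs with -2.90 (SE 0.40, adjusted p = 1.1e-05), unlike the synthase and the desaturases named above.

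Of the 17 genes of fatty acid oxidation, 6 were higher and 2 lower in activated tTregs than in activated Tconvs, beside 25.6% and 22.6% of all genes tested, and *Cpt1a* had the largest change with 1.37 (SE 0.12, adjusted p = 2.6e-07). Its response to activation also differed between the cell types, by -1.63 (SE 0.17, adjusted p = 3.99e-06) for Tconvs minus tTregs. *Decr1*, an accessory reductase for unsaturated acids, was higher in resting tTregs than in resting Tconvs with 1.67 (SE 0.17, adjusted p = 1.08e-06). *Acadm* was the one gene of this list that differed between the inhibitors, lower with CM-4620 than with CsA with -1.13 (SE 0.08, adjusted p = 1.94e-06). *Lbr*, a sterol reductase of the inner nuclear membrane, fell on restimulation of iTregs with -0.60 (SE 0.07, adjusted p = 2.36e-05).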
